A study of Drosophila melanogaster with 6 samples.

Results

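The Toll and Imd pathways are the humoral arms of innate immunity in Drosophila melanogaster. Secreted or membrane-bound recognition proteins bind microbial cell walls, a serine protease cascade cleaves the Toll ligand Spätzle or the Imd adaptor is recruited to a receptor, and NF-κB factors (Dorsal, Dif and Relish) switch on genes of antimicrobial peptides, mostly in fat body and blood cells. Toll signaling also patterns the early embryo, and embryonic macrophages (hemocytes) are known for engulfing dying cells and for secreting matrix and clotting proteins. The 47 genes described here were taken by name as the recognition proteins, Toll and Imd signaling genes, antimicrobial peptides and thioester proteins. All 47 names were found among the 17494 genes listed in each sample. Of these, 34 had reads in all 6 samples, 33 had enough reads to be tested, 9 had too few, 3 (AttD, CecA1 and DptA) had none, and 2 (PGRP-SD and SPE) had values that could not be placed with enough certainty.

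The 6 samples are RNA sequencing libraries of macrophages, sorted by their mCherry label from whole embryos collected for stage 11 at 29°C. The 3 DfosDN samples come from embryos that carried UAS-DfosDN with srpHemo-Gal4 and srpHemo-3xmCherry, so that their macrophages made a shortened Dfos, a bZIP protein of the AP-1 complex. Without its activation domain this form is a dominant negative, as it can still pair with its partners on DNA. The 3 WT samples come from embryos with the same macrophage driver and label, srpHemo-Gal4 and srpHemo-3xmCherry, and no UAS transgene, and all embryos had a w background. The embryos of a sample were pooled from several collections, and the driver acts in macrophages through an enhancer of the gene serpent. The sorts were made in 3 replicates, so p-values measure the spread between these sorts. In such bulk samples, fewer cells of a type and less RNA per cell cannot be told apart.

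The deposited values are on the TPM scale (transcripts scaled to a common library total and corrected for gene length), but decimal points are lacking in all values of 1 or more. Whole reads were recovered from them with the exon length of each gene, and the power of 10 of each value came from a count model in which the groups have separate means, so an uncertain value is placed nearer to its own group. The reads summed to between 8510275 and 9119429 in DfosDN samples and to between 8836210 and 9953193 in WT samples. Levels are given below as scaled TPM, that is reads per exon length scaled by TMM factors. Differences are log2 fold changes, DfosDN minus WT, of scaled TPM + 1, with the standard error (SE) and the adjusted p of limma with Benjamini-Hochberg adjustment over 7468 genes. Changes of genes with low TPM are understated on this scale, and 3′ end reads divided by exon length place long genes low. The gene kay, which encodes Dfos and would also hold reads of the transgene, had 15.9, 18.3 and 14.4 TPM in DfosDN and 5.69, 12.6 and 12.1 TPM in WT samples. All 3 DfosDN samples lay above the 3 WT samples, with a log2 fold change of 0.69 (SE 0.30) that did not pass the threshold (adjusted p = 0.248). The labelled cell type was checked against marker genes. Among macrophage markers the engulfment receptor NimC4 had 6910 to 11200 TPM in DfosDN and 13500 to 18100 TPM in WT samples, and sn, the gene of an actin bundling protein, had 719 to 1080 TPM in DfosDN and 696 to 892 TPM in WT samples. Fat body markers summed to 9.01 to 14.3 TPM over 6 genes in DfosDN and 10.6 to 24.5 TPM in WT samples, nearly all from apolpp, with Lsp1alpha and Lsp2 without a read. Neuron markers summed to 18.5 to 25.5 TPM over 5 genes in DfosDN and 13.8 to 20.9 TPM in WT samples, most of it elav. Of the crystal cell markers, lz had 0.674 to 2.87 TPM, while PPO1, PPO2 and peb could not be placed with enough certainty. Their likeliest values over the 6 samples were 173 to 730 TPM for PPO1, 997 to 4450 TPM for PPO2 and 5.23 to 18.3 TPM for peb.

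Across the 47 genes, PGRP-LF, a recognition protein, was the only one that passed the adjusted threshold, and it was lower in DfosDN macrophages. No member was called higher. This is 1 of the 33 tested (3.03%), beside 1.75% of all genes tested that were called lower and 1.58% called higher. At an unadjusted p under 0.05, 7 members were lower and 4 higher, where 8.92% of all genes were lower and 9.44% higher. By limma-voom on the restored reads, the NF-κB gene Rel and the thioester gene Tep4 were called lower and the Toll adaptor gene Myd88 higher, while PGRP-LF was not, beside 2.36% and 1.58% of all genes. The log2 fold change was negative in 22 of the 33 members and positive in 11, with a median of -0.26, beside 0.01 over all genes, of which 48.4% were negative. In 9 members (27.3%) every DfosDN sample was below every WT sample, beside 11.3% of all genes. In 4 members (12.1%) every DfosDN sample was above, beside 12.2% of all genes. Summed over the 45 members that could be placed, levels were 304, 329 and 355 TPM in DfosDN and 360, 423 and 445 TPM in WT samples. Without the antimicrobial peptides, the sums of the other 36 members overlapped. They were 298, 327 and 313 TPM in DfosDN and 288, 311 and 385 TPM in WT samples. The peptides themselves summed to 6.46, 2.33 and 42.1 TPM in DfosDN and 71.5, 112 and 60.3 TPM in WT samples. The sum of the 4 thioester genes separated the groups as well, at 43.8, 45.4 and 49.5 TPM against 60.1, 71.8 and 83.3 TPM. The separation can therefore not be assigned to the peptides alone. Most of the peptide sum in WT samples came from 2 genes, Mtk and Drs. Neither was called by limma, and the groups overlapped in Mtk. The sum of the 6 cytoplasmic Toll genes was higher in DfosDN, at 74.3 to 80.0 TPM against 62.6 to 69.5 TPM in WT samples. Much of it was Myd88, at 34.6 to 45.4 TPM in DfosDN and 18.9 to 24.2 TPM in WT samples. Of the 6 genes, 4 had a negative log2 fold change and 2 a positive one, with a median of -0.11.

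**Figure D1:**
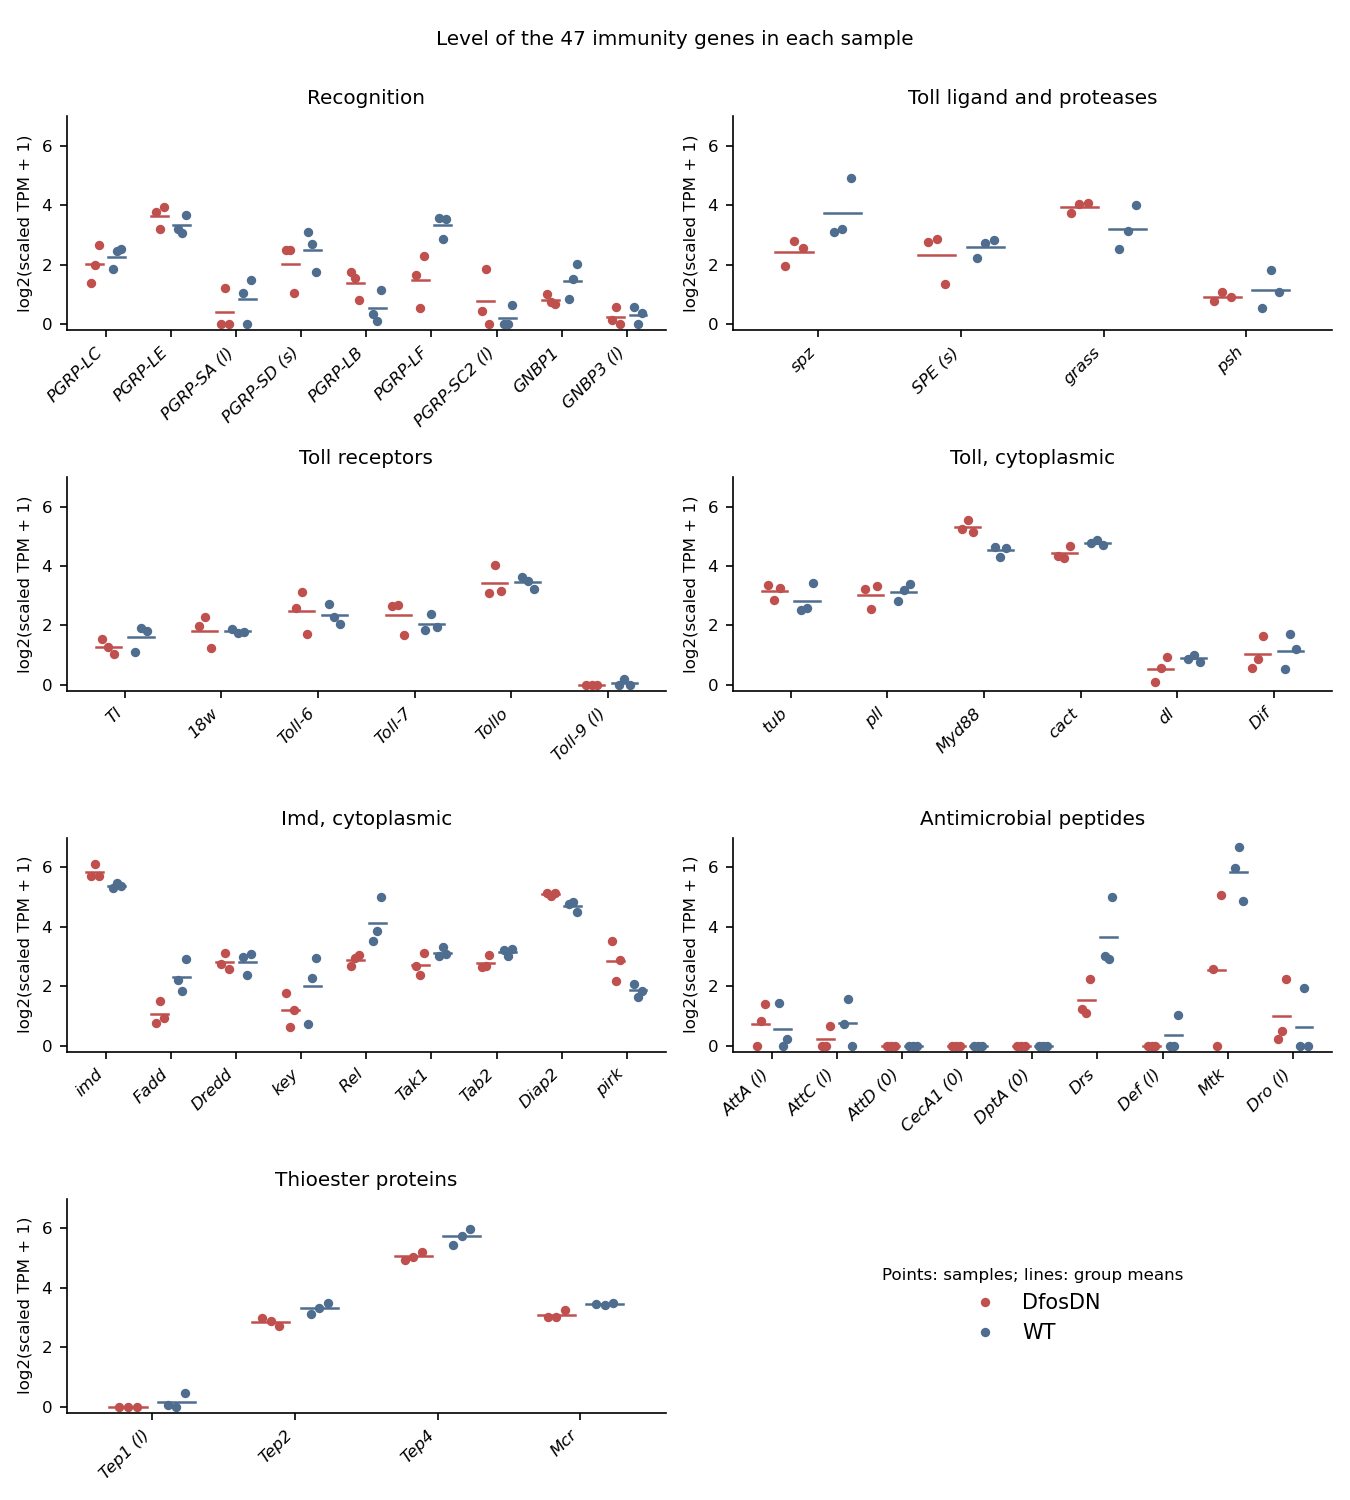
Level of each of the 47 immunity genes as log2(scaled TPM + 1), 1 panel per role, with 3 DfosDN samples (red, left) and 3 WT samples (blue, right) as points and the group means as lines. Genes marked (l) had too few reads to be tested, (0) had none and (s) could not be placed with enough certainty. The points of PGRP-LF, Rel, spz, Drs and Tep4 lie lower in DfosDN, those of Myd88, imd and pirk higher, and 3 of the 9 antimicrobial peptide genes are at 0 in every sample.

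Among the 9 recognition proteins, PGRP-LF and PGRP-LE had the highest levels. PGRP-LF, a membrane protein without a signaling domain that restrains the Imd receptor PGRP-LC, had 2.14, 0.445 and 3.83 TPM in DfosDN samples, from 22, 4 and 40 reads, against 10.8, 6.30 and 10.7 TPM in WT samples, from 121, 68 and 102 reads. The groups did not overlap, and the lowest WT sample was above the highest DfosDN sample. The mean was 2.14 ± 1.69 TPM in DfosDN and 9.24 ± 2.54 TPM in WT macrophages (SD, n = 3 each), a ratio of 0.232 of DfosDN over WT. PGRP-LF fell by 1.84 on the log2 scale (SE 0.42, 95% interval -2.78 to -0.90, adjusted p = 0.0447). The call is close to the threshold. Without WT replicate 1, WT replicate 3, DfosDN replicate 1 or DfosDN replicate 2, the adjusted p was 0.0839, 0.134, 0.0734 and 0.0972, and the log2 fold change over the 6 fits that each leave out a sample lay between -2.23 and -1.36. PGRP-LF (FBgn0035977) lies on chromosome 3L from 9349609 to 9351489 of the BDGP6.54 annotation, where its exons overlap those of UGP on the opposite strand, and whether the reads were counted by strand is not given in the sources used here, so reads of the 2 genes may not be told apart. UGP itself had 21.4 to 31.0 TPM in DfosDN and 20.7 to 51.3 TPM in WT samples, and its difference was -0.53 (SE 0.31, adjusted p = 0.411). The same limit holds for other members whose exons overlap a gene on the opposite strand. These are imd (with GstE9), Diap2 (bug), cact (fzy), key, pll, Dif, Dredd, PGRP-SD, AttC, Tep2, Mcr and spz.

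PGRP-LC, the membrane receptor of the Imd pathway and the neighbour of PGRP-LF on chromosome 3L, had 1.59, 2.94 and 5.37 TPM in DfosDN and 2.61, 4.46 and 4.69 TPM in WT samples. These overlap, and the log2 fold change was -0.26 (95% interval -1.07 to 0.55, adjusted p = 0.759). PGRP-LE, an intracellular sensor of the same pathway, had 12.6, 8.22 and 14.4 TPM in DfosDN and 8.25, 7.39 and 11.7 TPM in WT samples. Its difference of 0.32 (SE 0.28) was within the spread (adjusted p = 0.590), and the value of DfosDN replicate 3 rests on 230 reads that would be 23 at the next lower power of 10. PGRP-LB, an amidase that degrades peptidoglycan and dampens the Imd response, had 2.38, 1.95 and 0.731 TPM in DfosDN against 0.271, 0.0707 and 1.2 TPM in WT samples. The groups overlapped through WT replicate 3, and the log2 fold change was 0.84 (SE 0.36, adjusted p = 0.247). GNBP1, a circulating sensor upstream of Toll, was low, at 0.582 to 1.03 TPM in DfosDN and 0.810 to 3.09 TPM in WT samples (log2 fold change -0.65, adjusted p = 0.330). The circulating sensor PGRP-SA had at most 9 reads in a DfosDN sample and 13 in a WT sample, the amidase gene PGRP-SC2 at most 13 in DfosDN and 3 in WT, and the fungal sensor GNBP3 at most 5 in DfosDN and 6 in WT. These 3 genes were too low to be compared. PGRP-SD, another secreted recognition protein, had likeliest values of 4.57, 4.60 and 1.08 TPM in DfosDN and 7.52, 5.40 and 2.36 TPM in WT samples. Its least certain value had a posterior probability of 0.832, under the limit of 0.9, and it was not tested.

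The 4 genes that make and activate the Toll ligand differed in direction. The ligand gene spz had 2.85, 6.0 and 4.89 TPM in DfosDN, from 51, 94 and 89 reads, against 7.49, 8.07 and 29.4 TPM in WT samples, from 147, 152 and 491 reads. Every DfosDN sample was below every WT sample, and WT replicate 3 stood far above the other WT samples. Its difference of -1.30 (SE 0.46) did not pass the threshold (adjusted p = 0.164) and was -0.70 without WT replicate 3. The exons of spz overlap those of CG43935 on the opposite strand. The protease gene grass had 12.2, 15.6 and 15.8 TPM in DfosDN and 4.76, 7.67 and 14.9 TPM in WT samples, a log2 fold change of 0.74 (SE 0.34, adjusted p = 0.287) with overlapping groups. The protease gene psh stayed between 0.439 and 2.52 TPM in the 6 samples (log2 fold change -0.22, adjusted p = 0.783). SPE, whose protease cleaves Spätzle, was not tested, as its least certain value had a posterior probability of 0.841. Its likeliest values were 5.83, 6.2 and 1.54 TPM in DfosDN and 3.61, 5.55 and 6.15 TPM in WT samples, and it shares exons with CG18754 on the same strand.

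None of the 5 Toll receptor genes tested passed the threshold of limma, with or without adjustment, or that of limma-voom, and the groups overlapped in all 5. Tollo had the highest level, at 7.59, 15.4 and 7.88 TPM in DfosDN and 11.5, 10.2 and 8.36 TPM in WT samples, with a log2 fold change of -0.02 (95% interval -0.68 to 0.63, adjusted p = 0.979). Toll-6 followed with 5.0, 7.72 and 2.28 TPM in DfosDN and 5.61, 3.84 and 3.12 TPM in WT samples (log2 fold change 0.13, 95% interval -0.70 to 0.96, adjusted p = 0.898). Both are known from cell rearrangement and neural development. DfosDN replicate 2 had the highest Tollo and Toll-6 levels and DfosDN replicate 3 the lowest Toll-6 level, so the DfosDN samples spread more widely than the WT samples. Tl, the receptor of Spätzle, was lower in level, at 1.05 to 1.93 TPM in DfosDN and 1.16 to 2.80 TPM in WT samples, and its difference was -0.33 (95% interval -1.02 to 0.35, adjusted p = 0.620). For 18w and Toll-7 the log2 fold changes were 0.02 (95% interval -0.68 to 0.72) and 0.28 (95% interval -0.46 to 1.02). Toll-9 had 4 reads in WT replicate 2 and none in the other samples, where a count of 0 allows up to 3 reads, or 0.107 to 0.124 TPM.

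In the cytoplasmic part of the Toll pathway, Myd88 and cact had the highest levels and went in opposite directions. Myd88, the adaptor that joins the receptor to Tube and Pelle, had 37.0, 45.4 and 34.6 TPM in DfosDN against 24.2, 18.9 and 23.4 TPM in WT samples, from 962 to 1088 reads in DfosDN and 545 to 725 reads in WT samples. Every DfosDN sample was above every WT sample, and the ratio of means was 1.76. The difference of 0.79 (SE 0.19, 95% interval 0.36 to 1.21) lay just outside the threshold (adjusted p = 0.0553), and limma-voom gave 0.81 and a call (adjusted p = 0.0184). Leaving out each sample in turn kept it between 0.67 and 0.86, with adjusted p between 0.0720 and 0.166. The inhibitor gene cact, whose protein holds the NF-κB factors in the cytoplasm, had 19.1, 18.5 and 24.8 TPM in DfosDN and 26.3, 28.4 and 25.0 TPM in WT samples. The groups did not overlap, but DfosDN replicate 3 lay just under WT replicate 3, and the difference of -0.35 (SE 0.19) did not pass (adjusted p = 0.380). The NF-κB genes of the pathway were low, dl at 0.0615 to 0.908 TPM in DfosDN and 0.704 to 1.02 TPM in WT samples, and Dif at 0.486 to 2.12 TPM in DfosDN and 0.444 to 2.25 TPM in WT samples. Their log2 fold changes were -0.36 (95% interval -0.98 to 0.27) and -0.12 (95% interval -0.95 to 0.72). The log2 fold changes of tub and of the kinase gene pll were 0.32 (95% interval -0.37 to 1.01) and -0.10 (95% interval -0.74 to 0.55).

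The 9 cytoplasmic genes of the Imd pathway were all tested. Their log2 fold changes ran from -1.27 for Fadd to 1.0 for pirk, and none passed the adjusted threshold, while Rel passed it by limma-voom. At an unadjusted p under 0.05, 2 were lower and 2 higher. The adaptor gene imd had the highest level, at 51.5, 68.4 and 51.9 TPM in DfosDN against 38.8, 43.4 and 40.8 TPM in WT samples. Every DfosDN sample was above every WT sample, with a log2 fold change of 0.46 (SE 0.17, adjusted p = 0.185). Diap2, a ubiquitin ligase of the pathway, had 33.9, 31.6 and 34.3 TPM in DfosDN against 26.0, 27.9 and 21.8 TPM in WT samples, a difference of 0.39 (SE 0.18, adjusted p = 0.279). The groups did not overlap here either, although WT replicate 1 rests on 460 reads that would be 46 at the next lower power of 10. The third member with all DfosDN samples above was pirk, a negative regulator that the pathway itself induces. It had 10.5, 3.51 and 6.40 TPM in DfosDN, from 147, 43 and 91 reads, against 3.26, 2.11 and 2.61 TPM in WT samples, from 50, 31 and 34 reads (log2 fold change 1.0, SE 0.35, adjusted p = 0.159).

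Rel, which encodes Relish, the NF-κB factor at the end of the Imd pathway, went the other way. It had 5.43, 6.73 and 7.31 TPM in DfosDN, from 144, 156 and 197 reads, against 10.4, 13.6 and 31.3 TPM in WT samples, from 302, 380 and 774 reads. The DfosDN samples lay close together and below every WT sample, and WT replicate 3 was over 1.5 times both other WT samples. A difference of -1.24 (SE 0.36) had an adjusted p of 0.0913, and limma-voom gave -1.33 with an adjusted p of 0.0429. Without WT replicate 3 the limma value was -0.79 and without WT replicate 1, which passed the threshold, -1.55 (adjusted p = 0.0432). The 380 reads of WT replicate 2 would be 38 at the next lower power of 10, and if all values took their smallest power Rel was at -0.36 (adjusted p = 0.887). Fadd, which links Imd to the caspase Dredd, had 6, 14 and 8 reads in DfosDN and 35, 24 and 54 reads in WT samples, or 0.681, 1.82 and 0.893 TPM in DfosDN against 3.62, 2.59 and 6.57 TPM in WT samples. The groups did not overlap, and the difference of -1.27 (SE 0.35) had an adjusted p of 0.0763, and 0.288 by limma-voom. The remaining members of the pathway overlapped between the groups. Their log2 fold changes were -0.81 for key (95% interval -1.96 to 0.35), the regulatory subunit of the kinase that activates Relish, -0.41 for the kinase gene Tak1 (95% interval -1.02 to 0.20), -0.37 for its partner Tab2 (95% interval -0.92 to 0.19) and -0.00 for Dredd (95% interval -0.64 to 0.64).

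**Figure D2:**
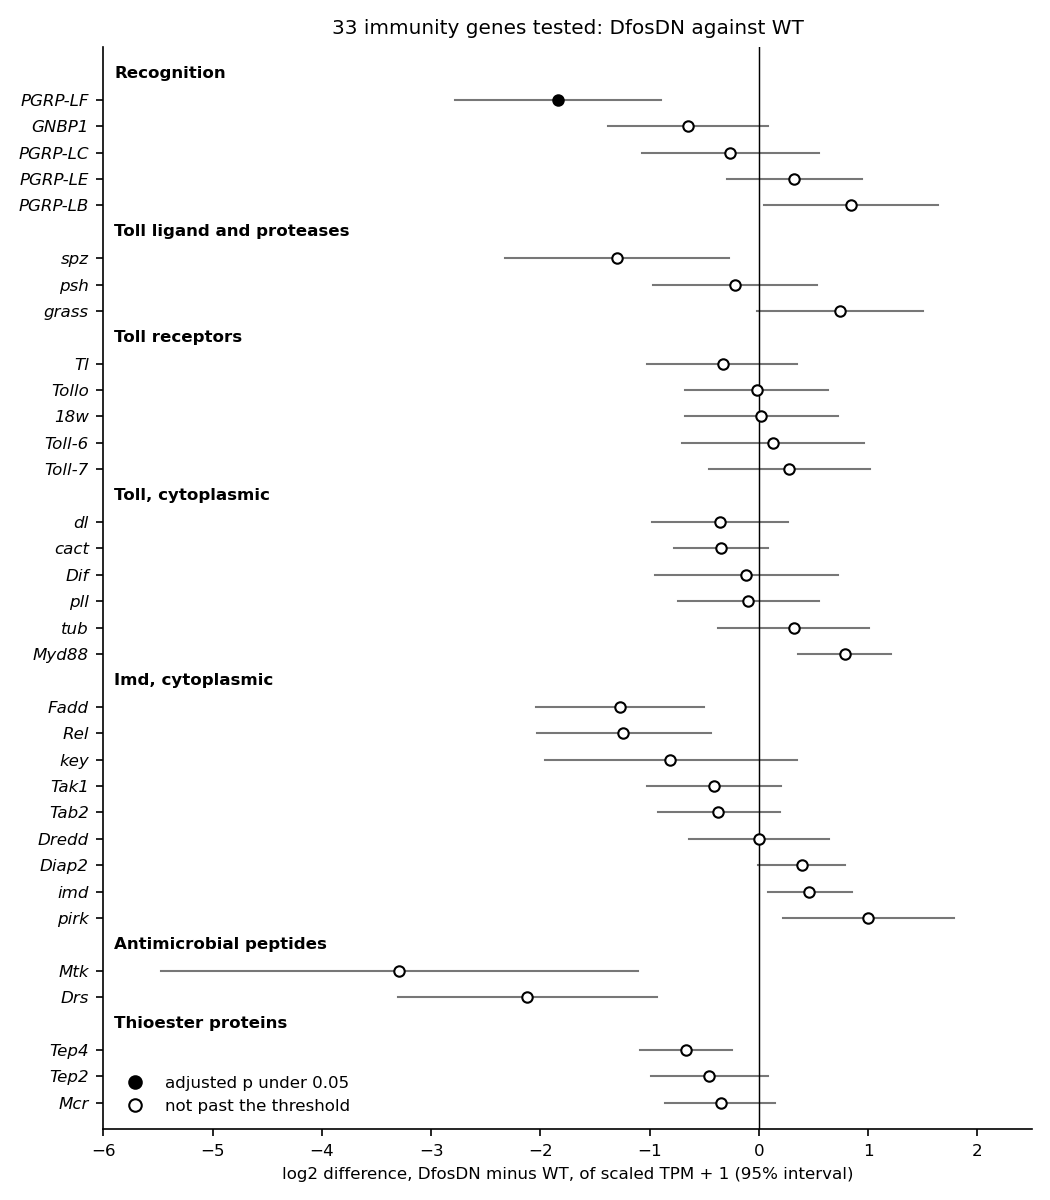
Log2 fold change, DfosDN minus WT, of scaled TPM + 1 for the 33 members tested, by role, with 95% intervals from limma as bars. The filled point is PGRP-LF, the member past the adjusted threshold, at -1.84. The open points of Myd88, imd, pirk and PGRP-LB have intervals above 0, and those of spz, Fadd, Rel, Mtk, Drs and Tep4 have intervals below 0 but did not pass after adjustment.

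Most antimicrobial peptide genes were at or near 0 in both groups. AttD, CecA1 and DptA had no read in any sample, which allows up to 3 reads per sample, or up to 0.583, 1.28 and 0.872 TPM. Def had 3 reads in WT replicate 3 and none in the other samples. AttA had 0, 4 and 10 reads in DfosDN and 11, 0 and 1 in WT samples, AttC had 0, 0 and 4 reads in DfosDN and 5, 14 and 0 in WT samples, and Dro had 1, 2 and 22 reads in DfosDN and 0, 17 and 0 in WT samples. None of these was tested, and reads of AttA and its near-identical copy AttB can be split between them. The exceptions were the antifungal peptide genes Drs and Mtk. Drs, a classical Toll target, had 1.36, 1.17 and 3.69 TPM in DfosDN, from 4, 3 and 11 reads, against 7.16, 6.49 and 31.1 TPM in WT samples, from 23, 20 and 85 reads. Every DfosDN sample was below every WT sample, and WT replicate 3 was far above the others. On the log2 scale Drs differed by -2.12 (SE 0.53, 95% interval -3.30 to -0.93, adjusted p = 0.0602). The value was -1.44 without WT replicate 3. It passed the threshold in 2 of the 6 fits that each leave out a sample. These were the fits without WT replicate 1 (adjusted p = 0.0488) and without WT replicate 2 (adjusted p = 0.0458), and the adjusted p of the others reached 0.169. By limma-voom Drs was at -2.42 and was not called (adjusted p = 0.322). Mtk had 4.92, 0 and 32.4 TPM in DfosDN, from 10, 0 and 67 reads, against 62.0, 101 and 28.0 TPM in WT samples, from 138, 215 and 53 reads. Here the groups overlapped, since DfosDN replicate 3 was above WT replicate 3. The difference was -3.29 (SE 0.98, 95% interval -5.47 to -1.11, adjusted p = 0.101), and limma-voom did not call it either (adjusted p = 0.137). Over the 6 fits that each leave out a sample it lay between -4.55 and -2.02, with adjusted p between 0.0104 and 0.219. Only the fit without DfosDN replicate 3, the DfosDN sample with the highest level, passed the threshold (-4.55, adjusted p = 0.0104). The lowest posterior probability of a value was 0.904 in Drs and 0.908 in Mtk, so both lie just inside the limit.

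Thioester proteins bind microbes and mark them for phagocytosis. Tep4 had the highest level of the 4 genes, at 29.9, 32.0 and 35.5 TPM in DfosDN against 42.5, 53.1 and 62.7 TPM in WT samples, from 1036 to 1336 reads in DfosDN and 1724 to 2165 reads in WT samples. The groups did not overlap, and the ratio of means was 0.615. The log2 fold change was -0.67 (SE 0.19, 95% interval -1.09 to -0.25, adjusted p = 0.0834), and limma-voom gave -0.68 with an adjusted p of 0.0389. Mcr, which also builds septate junctions, had 7.08, 7.07 and 8.53 TPM in DfosDN against 9.83, 9.65 and 10.2 TPM in WT samples (log2 fold change -0.35, SE 0.23, adjusted p = 0.456). Tep2 had 6.81, 6.39 and 5.52 TPM in DfosDN against 7.77, 9.05 and 10.1 TPM in WT samples (log2 fold change -0.46, SE 0.24, adjusted p = 0.349). In all 3 genes every DfosDN sample was below every WT sample, as in 11.3% of all genes, and none of the differences passed the threshold of limma. Tep1 had no reads in DfosDN samples, which allows up to 3, and 1, 0 and 11 reads in WT samples.

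A wider list of 83 other genes of recognition, of the Toll and Imd pathways and of their effectors was set beside the members. Of these, 35 could be tested, 20 had no reads, 22 had too few and 6 could not be placed with enough certainty. In this list 6 genes were called lower in DfosDN macrophages (17.1%, beside 1.75% of all genes) and 1 higher (2.86%, beside 1.58%). The 6 were all effectors. The list held 35 effector genes, of which only 7 were tested, 13 had no reads, 11 had too few and 4 could not be placed. The log2 fold changes of the 7 were all negative. The seventh, Drsl5, was not called and had 0, 0 and 12 reads in DfosDN and 11, 25 and 10 in WT samples. It reached the filter on reads through its WT samples, so its direction is no support. Among the 2 recognition genes, 15 Toll pathway genes and 11 Imd pathway genes tested limma called none lower, 2 Toll pathway genes were lower at an unadjusted p under 0.05 (beside 8.92% of all genes), and limma-voom called 1 of these, the serpin gene Spn27A. The median over the 35 genes was -0.26.

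The effectors that fell were IM2, IM3 and IM23, secreted peptides of the Bomanin family that the Toll pathway induces, IM14, a Daisho peptide with the same induction, IM33, another immune-induced peptide of the hemolymph, and fon, a clotting protein. IM3 had 8.06, 11.2 and 14.5 TPM in DfosDN against 28.2, 50.8 and 113 TPM in WT samples, and fell by 2.22 on the log2 scale (SE 0.42, adjusted p = 0.0184). IM2 had 9.70, 4.52 and 7.43 TPM in DfosDN against 18, 49.3 and 74.8 TPM in WT samples, and fell by 2.40 (SE 0.45, adjusted p = 0.0179). These genes and IM23 lie beside each other on chromosome 2R, between 18382704 and 18388734. IM23 had 4.23, 6.12 and 5.82 TPM in DfosDN against 11.3, 13.7 and 26.0 TPM in WT samples, a log2 fold change of -1.42 (SE 0.32, adjusted p = 0.0382). IM14 had 50.3, 27.1 and 73.9 TPM in DfosDN against 115, 134 and 275 TPM in WT samples (log2 fold change -1.78, SE 0.38, adjusted p = 0.0322). IM33 and IM14 were the most abundant of these peptides. IM33 had the highest level, at 65.1, 108 and 138 TPM in DfosDN against 194, 412 and 473 TPM in WT samples (log2 fold change -1.75, SE 0.34, adjusted p = 0.0206). For fon the values were 12.1, 17.4 and 22.9 TPM in DfosDN against 33.5, 44.6 and 49.7 TPM in WT samples (log2 fold change -1.27, SE 0.25, adjusted p = 0.0242). In all 6 every DfosDN sample was below every WT sample, and WT replicate 3 was the highest. Over the 35 genes of the list this separation was seen in 11 (31.4%), beside 11.3% of all genes.

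These calls depended on single libraries. Without WT replicate 3 only IM3 was called, without DfosDN replicate 2 none was, without WT replicate 2 IM2, IM3 and IM14 were, and without DfosDN replicate 1 IM2, IM3 and IM33 were. By limma-voom on all samples IM3, IM14, IM33 and fon were called lower, together with Spn27A. When the decimal points were placed by a model without the groups, only fon remained among the calls. IM2, IM3, IM14 and IM33 could no longer be placed, and neither could spz, Rel, Drs and Mtk, while IM23 and akirin were placed and missed the threshold (adjusted p = 0.0664 for IM23 and 0.0652 for akirin). The WT sample of replicate 1 for IM3 and the DfosDN sample of replicate 2 for IM14 rest on a value placed above its smallest power of 10. The gene called higher was akirin, which encodes a nuclear cofactor of Relish, with 357, 480 and 365 TPM in DfosDN against 270, 254 and 227 TPM in WT samples. It rose by 0.67 on the log2 scale (SE 0.15, adjusted p = 0.0399), but no fit that left out a sample called it (adjusted p 0.0537 to 0.154). Among the genes of the list with the highest levels, lwr, the SUMO-conjugating enzyme, had 230, 217 and 183 TPM in DfosDN and 174, 172 and 178 TPM in WT samples (log2 fold change 0.26, adjusted p = 0.347).

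**Figure D3:**
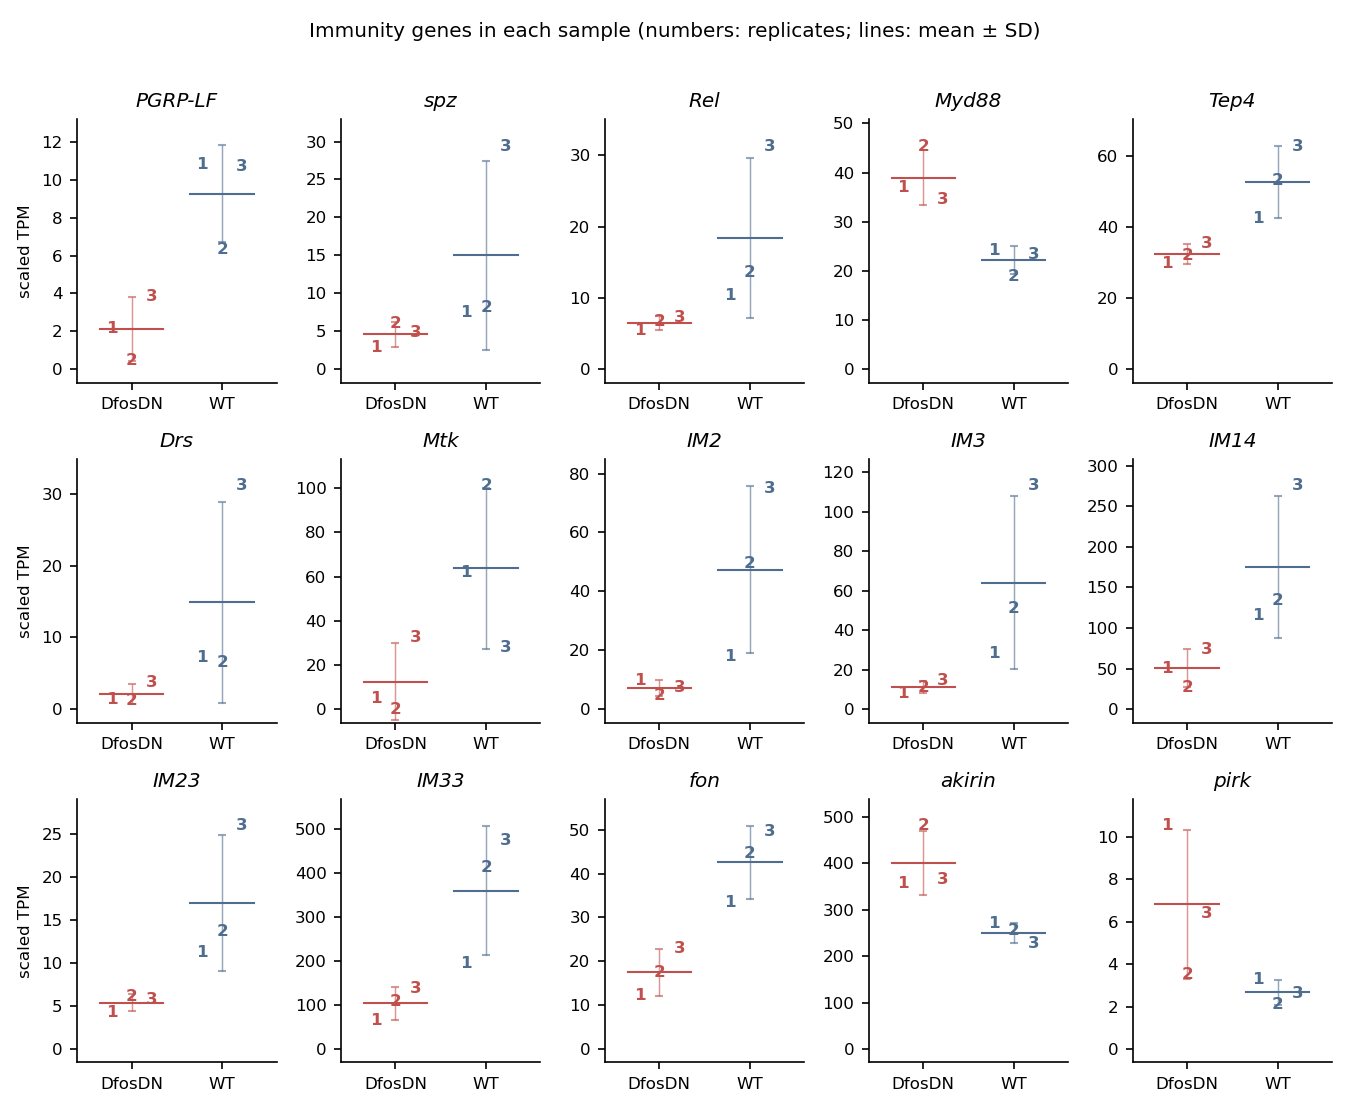
Scaled TPM of 15 immunity genes in each sample, with DfosDN (red, left) and WT (blue, right), digits for the replicate, long lines for the mean and bars for the SD. WT replicate 3 has the highest value in spz, Rel, Tep4, Drs, IM2, IM3, IM14, IM23, IM33 and fon, and DfosDN replicate 3 overlaps the WT samples in Mtk.

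**Figure D4:**
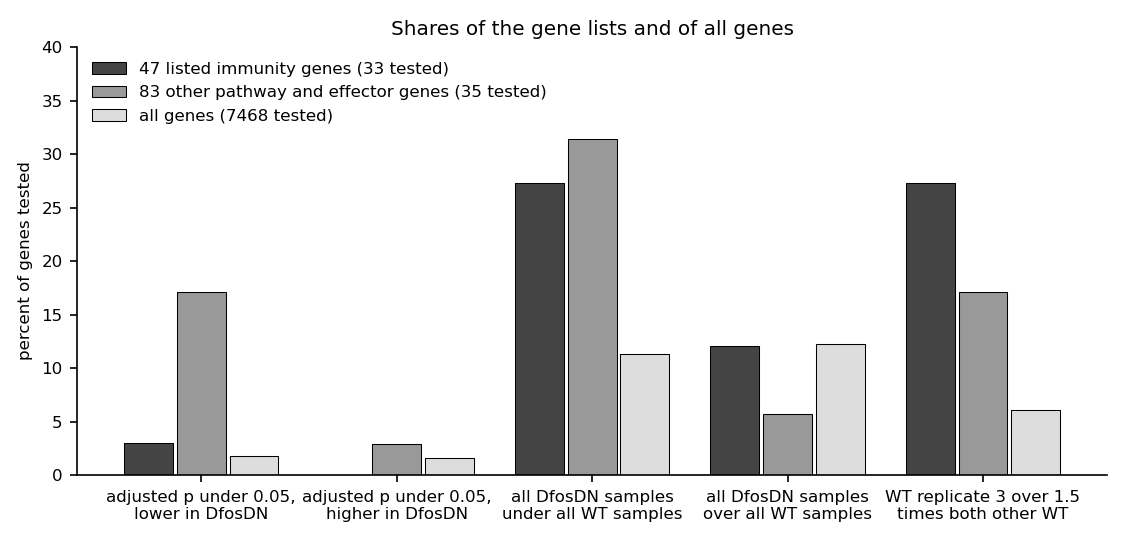
Percent of the genes tested that passed the adjusted threshold in either direction, that had groups without overlap in either direction, or whose level in WT replicate 3 was over 1.5 times that of both other WT samples. Bars show the 47 immunity genes (33 tested), 83 other pathway and effector genes (35 tested) and all 7468 genes tested, at 27.3%, 17.1% and 6.11% in the last of the 5 groups of bars.

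Levels in WT replicate 3 stood apart for many of these genes. They were over 1.5 times those of both other WT samples in 9 of the 33 members tested (27.3%), namely PGRP-LB, GNBP1, spz, grass, tub, Fadd, key, Rel and Drs, beside 6.11% of all genes. In the wider list the same held for 6 of 35 (17.1%), namely PGRP-LA, modSP, IM2, IM3, IM14 and IM23. WT replicate 3 was the highest of the 6 samples in 12 of the 33 members (36.4%), beside 16.9% of all genes. Most macrophage markers were also highest in this sample. Their sum was 23100 TPM in WT replicate 3, against 16700 and 18500 TPM in WT replicates 1 and 2. Among them were srp, Pxn, crq, NimC4, Ppn and Glt, while drpr, sn, ush, gcm, gcm2 and Sr-CI were highest in another sample. SPARC had 242, 432 and 384 TPM in DfosDN and 613, 555 and 1120 TPM in WT samples, Col4a1 had 155, 277 and 293 TPM in DfosDN and 319, 342 and 648 TPM in WT samples, and vkg had 85.5, 178 and 176 TPM in DfosDN and 200, 196 and 443 TPM in WT samples. These genes encode basement membrane proteins that macrophages secrete, and none was called by limma (adjusted p = 0.0621 for SPARC, 0.163 for Col4a1 and 0.199 for vkg), although limma-voom called SPARC (adjusted p = 0.0176). Hml, a marker of later hemocytes, had 10.6 TPM in WT replicate 3 and between 0.0561 and 0.555 TPM in the other samples.

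Other markers differed between the groups. The glial and blood cell fate gene gcm2 was called higher in DfosDN, at 32.3, 49.4 and 46.2 TPM against 18.5, 16.9 and 14.4 TPM in WT samples (log2 fold change 1.29, adjusted p = 0.0102). The related gene gcm was called higher too, at 87.8, 96.7 and 76.3 TPM against 43.9, 51.9 and 39.4 TPM in WT samples (log2 fold change 0.93, adjusted p = 0.0159). The endoderm gene GATAe had 1.89 to 5.18 TPM in DfosDN and 0.0405 to 0.896 TPM in WT samples (log2 fold change 1.61, adjusted p = 0.0386), and pnr, listed for the epidermis, had 90.8 to 114 TPM in DfosDN and 54.5 to 64.1 TPM in WT samples (log2 fold change 0.69, adjusted p = 0.0457). By limma-voom gcm2, gcm and pnr were called too, but GATAe was not (adjusted p = 0.0976). Leaving out a sample kept gcm2 called (adjusted p 0.00981 to 0.0498), while the adjusted p ran from 0.0241 to 0.0749 for gcm, from 0.0212 to 0.136 for GATAe and from 0.0725 to 0.174 for pnr. Summed over the 18 macrophage markers that could be placed, levels were 10600 to 14700 TPM in DfosDN and 16700 to 23100 TPM in WT samples, most of it NimC4, whose difference of -0.75 was not called by limma (adjusted p = 0.0555) but was by limma-voom (adjusted p = 0.00891). The macrophage markers did not move together. Both ush (log2 fold change 0.57, adjusted p = 0.133) and Sr-CI (0.45, adjusted p = 0.113) were higher in every DfosDN sample. Pxn (-0.47, adjusted p = 0.139) and Glt (-1.23, adjusted p = 0.0987, called by limma-voom) were lower in every DfosDN sample, as were SPARC, Col4a1 and vkg. The groups overlapped in srp, crq, drpr, Ppn and sn. The sums were 5.56 to 11.8 TPM in DfosDN and 1.13 to 3.23 TPM in WT samples for the 2 endoderm markers, and 115 to 131 TPM in DfosDN and 75.1 to 93.9 TPM in WT samples for the 4 epidermis markers, most of it pnr. The other epidermis markers shg, grh and crb had log2 fold changes of 0.08, 0.26 and -0.49, none of them called. The 5 muscle markers that could be placed summed to 16.9 to 21.1 TPM in DfosDN and 23.2 to 27.1 TPM in WT samples, and Mlc2, a myosin light chain gene, was called lower by limma-voom (adjusted p = 0.0429) but not by limma (log2 fold change -0.99, adjusted p = 0.0672). The other muscle markers Mef2, twi, Mhc and bap had log2 fold changes of -0.37, 0.75, -0.07 and 0.60, none of them called. Of these, twi was higher and Mef2 lower in every DfosDN sample. The part of these markers, and of WT replicate 3, in the differences of the immunity genes was not tested.

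**Figure D5:**
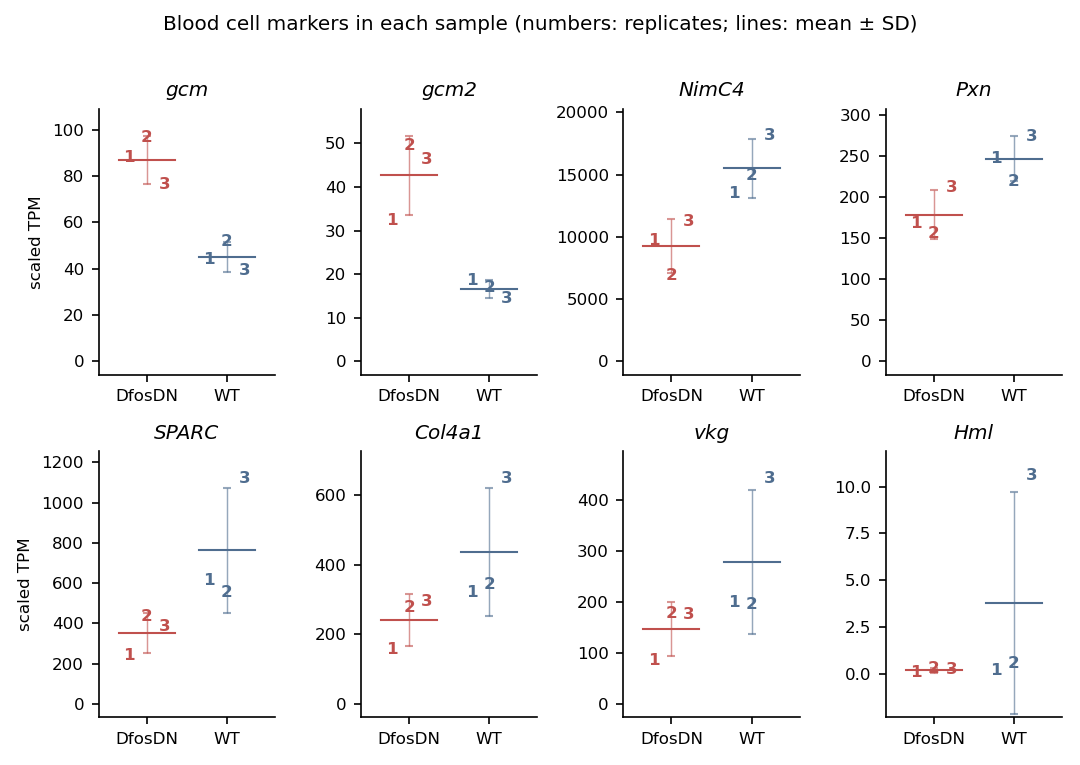
Scaled TPM of 8 blood cell markers in each sample, with DfosDN (red, left) and WT (blue, right), digits for the replicate, long lines for the mean and bars for the SD. The fate genes gcm and gcm2 lie higher in all 3 DfosDN samples, and NimC4, Pxn, SPARC, Col4a1, vkg and Hml have their highest value in WT replicate 3.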

How the data were processed

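Macrophages of DfosDN and WT embryos were sequenced in 3 samples each, with reads of 50 bases. Per the labels and the study's methods, the authors aligned reads to BDGP6 with STAR 2.5.1b, counted them with HTSeq 0.5.4p3 and tested them with TMM from edgeR, voom and limma. The methods name a 3′ end kit and the labels a standard Illumina protocol. The values the authors deposited are neither these counts nor fold changes but are on the TPM scale, and values of 1 or more have lost their decimal point (7425 to 7683 values per sample). A value equals reads times a constant of the sample over the exon length (Ensembl BDGP6.54, release 115). Of the intact values, 97.9% to 98.4% per sample were whole reads within 0.0001. For the other values a negative binomial model of the 6 samples with 1 mean in each group gave the posterior probability of the possible powers of 10, and 464 genes with a posterior under 0.9 were set aside. This rule placed 4.75% of the values above the smallest power. Length came from the values, within 25% of the annotation, for 106 genes, 42 genes had no annotated length and 42 gave no whole reads.

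Genes were tested where 3 samples or more had 10 reads, rescaled to the median library, and the 6 samples had 15 in total. TMM factors were computed with 30% and 5% trimmed, 1 TPM was added, and limma 3.58.1 with an intensity trend was run in R 4.3.3 with an adjusted p under 0.05 as the threshold. Scripts used Python 3.11.15, NumPy 2.4.6 and SciPy 1.17.1 and were tested on simulated data. Replicates of a group differed by more than sampling noise (chi-square per degree of freedom 28.2 to 39.2).

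The 47 members, the wider list and the markers were chosen with earlier results of these data known. Values per sample are printed for members called, with an unadjusted p under 0.05, set aside, or among the 2 highest of their role, and for wider genes called or among the 3 highest. PGRP-LC and Tep2, and the reads of members too low to test, were added after their values were seen. Alternatives were other scalings, filters, pseudocounts of 0.1 and 5 TPM, limma-voom, other ways of placing the decimal point, a replicate block and the omission of single samples. A limma-voom fit with the block was added after seeing the data.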

Additional observations from a re-analysis of the deposited data

How the results depend on the processing

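By limma 1 member, PGRP-LF, was called lower. The members called lower were 0 with no scaling beyond TPM, with every gene of at least 1 read, with a pseudocount of 0.1 TPM, and with decimal points placed without the conditions, at the smallest power, or with no limit on the posterior. They were 2 by limma-voom (Rel and Tep4), 0 to 2 when a sample was left out, 2 with the replicate block (PGRP-LF and Drs) and 3 by limma-voom with the replicate block (spz, Rel and Tep4). The members called higher were 1 (Myd88) by limma-voom with and without the block. In the wider list, the 6 genes called lower became 0 with every gene of at least 1 read, 1 without the conditions, 0 at the smallest power and 0 to 6 when a sample was left out. The 1 gene called higher became 0 in the first 3 of these, with no limit on the posterior, with the replicate block and whichever sample was left out. Over all genes, 131 lower and 118 higher became 39 and 45 with every gene of at least 1 read, 49 and 48 without the conditions, 12 and 6 at the smallest power, and 36 to 127 and 48 to 122 when a sample was left out. By limma-voom with the replicate block 241 were lower.

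Of 557 values for the 33 members under the alternatives, 512 kept their direction and their side of the threshold, 12 fell short of it, 12 newly passed it and 21 changed sign, all in members that were not called. PGRP-LE was -0.56 at the smallest power. The log2 fold change of 18w was -0.00 with a pseudocount of 0.1 TPM and -0.04 by limma-voom, and that of Dredd was 0.00 with a pseudocount of 0.1 TPM. When a sample was left out, the log2 fold changes ran from -0.60 to 0.05 for PGRP-LC, -0.53 to 0.11 for psh, -0.21 to 0.31 for 18w, -0.20 to 0.50 for Toll-6, -0.33 to 0.13 for Tollo, -0.26 to 0.15 for pll, -0.42 to 0.16 for Dif and -0.22 to 0.13 for Dredd. The cause was not tested. Whether the replicate numbers pair the samples is not given in the sources used here. The deviations of same-numbered samples from their group means correlated by -0.05, 0.03 and 0.02. Not every sample correlated best with its own number. With 3 samples per group these correlations cannot decide whether same-numbered sorts were made together. For genes without reads, depth sets the limit, as a level under 3 reads cannot be told from 0.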

Other observations

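The genes given here were chosen after their values were seen. IM1, of the Bomanin family, and IM4, a Daisho peptide, could not be placed with enough certainty (least posterior probability 0.884 and 0.550). Their likeliest reads were 1, 10 and 26 in DfosDN and 37, 61 and 184 in WT samples for IM1, and 21, 33 and 14 in DfosDN and 179, 374 and 370 in WT samples for IM4. With no limit on the posterior, limma called IM4 lower, but not IM1. It also called Pli lower, which encodes the Toll pathway protein Pellino and was set aside (posterior probability 0.759), with likeliest reads of 36, 30 and 142 in DfosDN and 464, 418 and 441 in WT samples. The Toll receptor gene Tehao had 45 reads in DfosDN replicate 2 and none in the other 5 samples. Eater, a phagocytic receptor gene of later hemocytes, had 63 reads in WT replicate 3 and 0 to 4 in the other samples, and NimC1 had 3.74 TPM there and 0.0788 to 0.877 TPM elsewhere.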
